A study of Homo sapiens with 24 samples.

Results

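The untreated libraries of 2 human biliary tract cancer cell lines were compared: 3 libraries of OCUG-1 and 3 libraries of HuCCT1, which are 6 of the 24 libraries of the study. HuCCT1 was established from an intrahepatic cholangiocarcinoma, a cancer of the bile ducts inside the liver, and OCUG-1 from a gallbladder cancer. All 6 cultures received the solvent of the study's drugs, DMSO at no more than 0.1%, for 72 h, and the labels describe the 3 cultures of each line as independent biological replicates. HuCCT1 was grown in RPMI-1640 and OCUG-1 in DMEM, both with fetal bovine serum, so that cell line and culture medium cannot be told apart. Each cancer site is represented by a single line, and differences between the lines are not differences between intrahepatic and gallbladder cancers in general. The other 18 libraries held the same lines after sorafenib at 1.25 µM, sorafenib at 10 µM, or 1.25 µM sorafenib with 1 µM IACS-010759, an inhibitor of mitochondrial complex I, for the same 72 h. They entered the model for its estimate of spread and served as separate libraries in which the line difference could be read again.

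Biliary tract cancers arise from the epithelium that lines the bile ducts and the gallbladder. This epithelium is held together by E-cadherin and tight junctions, carries the simple keratins KRT7, KRT8, KRT18 and KRT19, and moves water, bicarbonate and bile components across its surface. Cultured carcinoma lines keep such programs to different degrees, and they also differ in growth factor circuits, in tonic interferon signalling, in antioxidant and drug-handling enzymes and in gained or lost chromosome segments. These programs are described below in that order, after the genes that were in use in one line and near absent from the other.

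The total count was 19138510 to 27614211 in the HuCCT1 libraries and 16295146 to 16788347 in the OCUG-1 libraries. Libraries of one line correlated at 0.983 to 0.989 on log CPM across genes, and libraries of different lines at 0.796 to 0.808. The first principal component of the 6 libraries held 91.1% of the variance and separated the lines. Counts of the mitochondrial genome made up 11.8%, 14.1% and 7.08% of the HuCCT1 libraries and 13.6%, 11.1% and 11.9% of the OCUG-1 libraries. HuCCT1 library 3 had the lowest mitochondrial share and was the farthest from its replicates, with a chi-square of 37.4 and 49.8 per degree of freedom against counting error, next to 11.7 between the other two HuCCT1 libraries. Levels are given as CPM, read counts scaled for library size with the trimmed mean of M values (TMM), in the order of replicates 1, 2 and 3.

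Most genes differed between the lines. Of 22944 genes tested, 15682 (68.3%) passed an adjusted p of 0.05 in edgeR's quasi-likelihood test and are referred to as called: 8178 (35.6%) were higher and 7504 (32.7%) lower in OCUG-1. A difference of at least 2-fold was called for 10485 genes (45.7%), 5899 (25.7%) higher and 4586 (20.0%) lower, and one of at least 4-fold for 5832 genes (25.4%), 3584 (15.6%) higher and 2248 (9.80%) lower. Among the 14660 protein-coding genes, 73.8% were called and 42.0% were called at 2-fold or more. All 3 libraries of one line lay above all 3 of the other for 71.1% of genes, and 65.8% were both called and free of overlap. The median log2 fold change, OCUG-1 minus HuCCT1, was 0.05 over all tested genes. Scaling by library size alone raised that median by 0.149 and scaling by the upper quartile raised it by 0.156, and the share of called genes that were higher in OCUG-1 went from 52.1% to 58.4% under either. With a background of 68.3%, a call alone says little about a gene, and the gene groups below are described by their direction, size and median beside these values. A split into both directions is what all tested genes showed, and is no trait of a list by itself. A gene list is counted over its tested members: 1050 of 1197 entries in 54 lists passed the low-count filter, and a member that passed it only through the line in which it was high had to differ. In bulk libraries such as these, fewer cells that use a gene and less RNA of it per cell cannot be told apart.

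**Figure D1:**
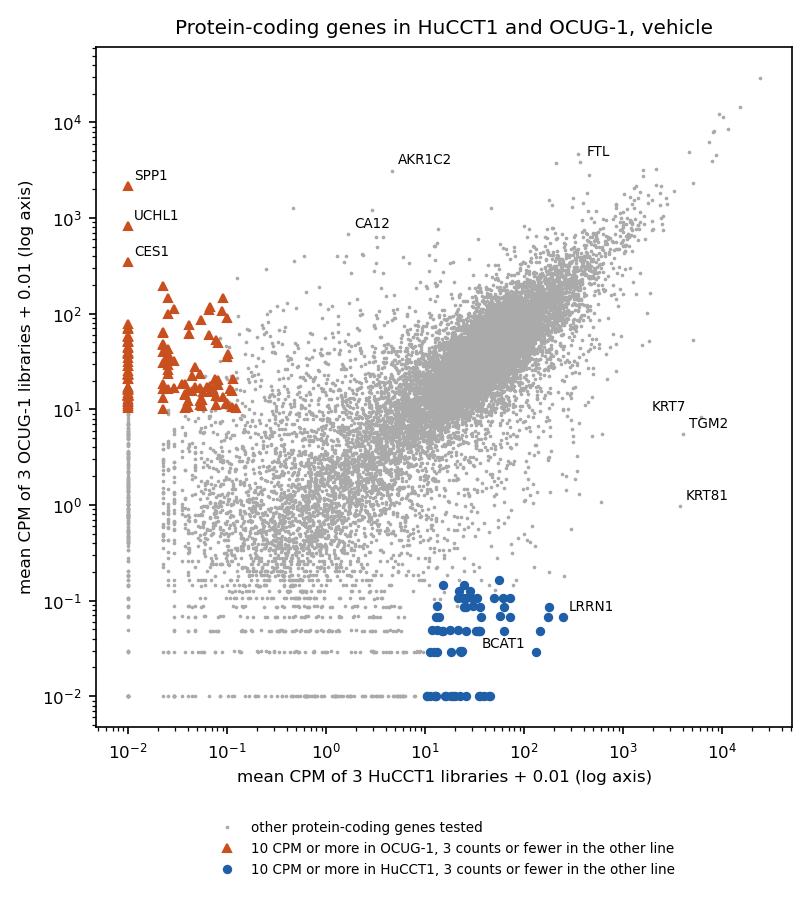
Mean CPM of the 3 HuCCT1 libraries (x axis) against that of the 3 OCUG-1 libraries (y axis) for tested protein-coding genes, both plus 0.01 on log axes; genes with at least 10 CPM in one line and at most 3 counts in every library of the other are coloured. Of these on-off genes, 114 were on in OCUG-1 and 66 in HuCCT1.

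A set of protein-coding genes was in use in one line, at a mean of at least 10 CPM, and had at most 3 counts in each library of the other. In OCUG-1 there were 114 such genes, 41 of them without a single count in HuCCT1. SPP1 (chr4:87975650-87983426 in GRCh38), which encodes the secreted matrix protein osteopontin, stood at 1465, 2901 and 2072 CPM in the OCUG-1 libraries and had 0 counts in all 3 HuCCT1 libraries. Against a floor of 3 counts per library, SPP1 was at least 15361-fold higher in OCUG-1. UCHL1, a ubiquitin hydrolase typical of neurons, was found at 795, 831 and 836 CPM in OCUG-1 and at 0 counts in HuCCT1, at least 5873-fold higher. CES1, the main carboxylesterase of the liver, was at 316, 388 and 342 CPM in OCUG-1 and at 0 counts in HuCCT1, at least 2498-fold higher. The OCUG-1 set also held genes of quite different roles. MMP17, a membrane metalloproteinase, had 84.6, 58.6 and 66.8 CPM and 0 counts in HuCCT1, at least 501-fold higher. CCNA1, a cyclin of germ cells, had 61.01, 77.3 and 67.3 CPM and 0 counts in HuCCT1. ROR2, a receptor for Wnt ligands, had 59.3, 57.8 and 57.5 CPM and 0 counts in HuCCT1. Further members were not at exactly 0 in HuCCT1: C2CD4A had 0, 0 and 1 counts there and 132, 157 and 147 CPM in OCUG-1, CD81, a tetraspanin of the cell surface, 2, 3 and 0 counts and 127, 154 and 152 CPM, and PSAT1, an enzyme of serine synthesis, 3, 1 and 0 counts and 97.8, 136 and 122 CPM.

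The reverse set, on in HuCCT1 and at the floor in OCUG-1, held 66 genes, 18 of them without any count in OCUG-1. LRRN1, a leucine-rich repeat protein of the cell surface, was at 261, 220.4 and 253 CPM in HuCCT1 and had 1, 0 and 2 counts in the OCUG-1 libraries. SCEL, a precursor of the cornified envelope of squamous cells, was at 189, 166 and 182 CPM in HuCCT1 and had 0, 3 and 1 counts in OCUG-1. BCAT1, the cytosolic aminotransferase of branched-chain amino acids, was at 133, 135 and 162 CPM in HuCCT1 and had 0, 1 and 1 counts in OCUG-1. In each of these genes every HuCCT1 library exceeded every OCUG-1 library by more than 100 CPM. VEGFC, the ligand that drives lymphatic vessel growth, was at 75.98, 72.6 and 65.4 CPM with 2, 0 and 3 counts in OCUG-1, and WNT10A, a Wnt ligand, at 65.1, 67.3 and 54.6 CPM with 1, 0 and 3 counts. Among those with no count in OCUG-1, PHACTR3 was at 34.1, 48.8 and 52.2 CPM in HuCCT1, at least 259.8-fold higher there, and the ephrin receptor EPHA4 at 22.7, 21.3 and 23.2 CPM, at least 129-fold higher. Both sets were defined by these counts, so their levels are a description and carry no test.

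Markers of biliary epithelium were present in both lines, in different members. 5 of 15 tested members were higher and 8 lower in OCUG-1, with a median log2 fold change of -0.71, beside 35.6% higher and 32.7% lower and a median of 0.05 over all tested genes. KRT7, a keratin of duct epithelium (chr12:52232520-52252186, GRCh38), had 5340.3, 6415 and 6816 CPM in the HuCCT1 libraries and 8.42, 6.15 and 10.1 CPM in the OCUG-1 libraries. The lowest HuCCT1 library exceeded the highest OCUG-1 library by a wide margin, with a log2 fold change -9.55 ± 0.20 (SE), adjusted p = 4.63e-25 by edgeR. KRT19, another duct keratin, had 1563, 1780.2 and 1665 CPM in the HuCCT1 libraries and 653, 579.9 and 570.3 CPM in the OCUG-1 libraries. Its groups did not overlap either, with a log2 fold change -1.47 ± 0.11 (SE), adjusted p = 1.82e-12 by edgeR, yet it remained in use in both lines. KRT18 did not differ beyond the spread of its replicates, at 907, 1072 and 885 CPM in the HuCCT1 libraries and 1123, 921 and 974 CPM in the OCUG-1 libraries, with overlapping groups (log2 fold change 0.08 ± 0.13 (SE), adjusted p = 0.632 by edgeR). Its partner KRT8 was higher in OCUG-1, at 1385, 1771 and 1587 CPM in the HuCCT1 libraries and 3484, 2939 and 3056 CPM in the OCUG-1 libraries (log2 fold change 1.00 ± 0.15 (SE), adjusted p = 1.49e-06 by edgeR). The surface glycoprotein EPCAM, widely used as an epithelial marker, was lower in OCUG-1 at 323 against 32.4 CPM (log2 fold change -3.32). The biliary transcription factor SOX9 was lower as well, with a log2 fold change of -1.26. SLC4A2, the anion exchanger that secretes bicarbonate, was higher in OCUG-1, with a log2 fold change of 1.65. As a check of the labelled origin, 11 of the 15 markers exceeded a mean of 10 CPM in each line, and KRT7, with a mean of 8.24 CPM, did not in OCUG-1.

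**Figure D2:**
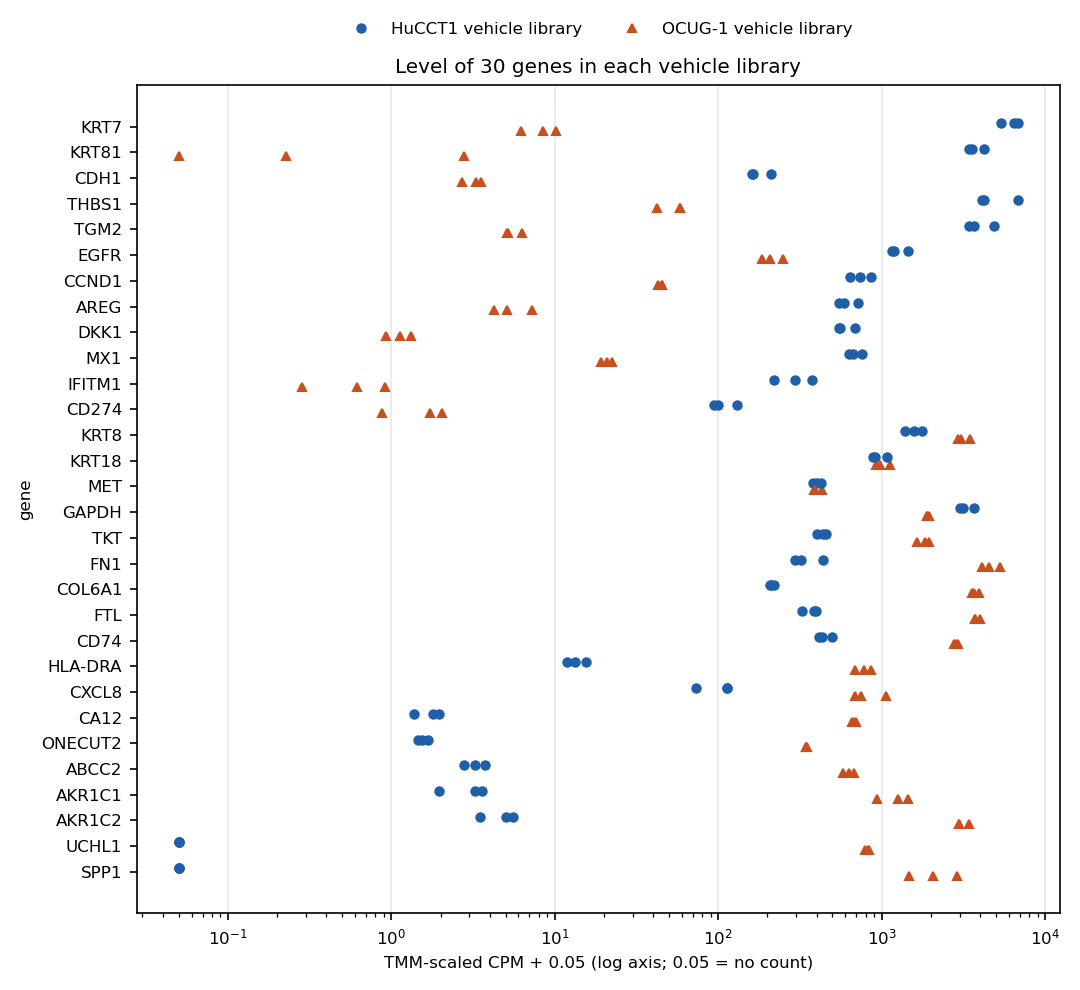
TMM-scaled CPM plus 0.05 (log x axis) of 30 genes (y axis) in each of the 3 HuCCT1 (circles) and 3 OCUG-1 (triangles) vehicle libraries. Genes at the top were lower in OCUG-1 and genes at the bottom higher, while KRT18 and MET overlapped; KRT7 ran from 6190 CPM on average in HuCCT1 to 8.24 CPM in OCUG-1.

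Keratins were lower in OCUG-1 for most members. 4 of 18 tested members were higher and 13 lower in OCUG-1, with a median log2 fold change of -3.39 (-3.30 when genes at the floor were set to their bound). KRT81, a hair-type keratin expressed in many carcinomas, had 3559, 4211 and 3412 CPM in the HuCCT1 libraries and 0.177, 0 and 2.74 CPM in the OCUG-1 libraries. No OCUG-1 library reached 3 CPM and 1 had no count (log2 fold change -11.88 ± 0.55 (SE), adjusted p = 6.62e-13 by edgeR). KRT81 has close paralogs, among them KRT86 and KRT83, and how reads shared between them were counted is not given in the sources used here. KRT80, another epithelial keratin, was lower at 299.7 against 14.8 CPM, and KRT17, a stress keratin, at 61.1 against 12.8 CPM. Squamous markers followed the keratins, which make up part of that list: 1 of 12 tested members were higher and 10 lower in OCUG-1, with a median log2 fold change of -3.21. The summed level of the list differed less, at 352 to 424 CPM in the HuCCT1 and 266 to 270 CPM in the OCUG-1 libraries. A mean of at least 10 CPM was reached by 4 members in HuCCT1 and by 3 in OCUG-1. TRIM29, a marker of basal cells, had 33.2 against 1.85 CPM and the basal calcium-binding protein S100A2 88.1 against 29.5 CPM. The defining squamous factor TP63 was below 1 CPM in both lines.

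Cell junction genes were lower in OCUG-1 for most members and switched on there for a few. 5 of 30 tested members were higher and 19 lower in OCUG-1, with a median log2 fold change of -1.15. CDH1 (chr16:68737225-68835548, GRCh38), the gene of E-cadherin, the main adhesion molecule between epithelial cells, had 162, 163 and 209.9 CPM in the HuCCT1 libraries and 2.65, 3.51 and 3.25 CPM in the OCUG-1 libraries. No OCUG-1 library came near the lowest HuCCT1 library (log2 fold change -5.82 ± 0.17 (SE), adjusted p = 2.35e-22 by edgeR). P-cadherin, CDH3, was likewise lower at 54.99 against 1.92 CPM (log2 fold change -4.83), and so was the tight junction claudin CLDN7 at 139 against 3.54 CPM (-5.29). Smaller differences were measured in the scaffold TJP1 (313 against 72.6 CPM, -2.11), in plakoglobin JUP (332 against 144 CPM, -1.21) and in alpha-catenin CTNNA1 (625 against 342 CPM, -0.87). Against that direction, CLDN8, a claudin that limits cation leak, was at 59.6, 95.3 and 80.4 CPM in OCUG-1 and 0 counts in HuCCT1, at least 561-fold higher. CLDN10, a claudin that forms ion pores, was at 41.3, 49.1 and 44.6 CPM in OCUG-1 and 0 counts in HuCCT1. Scaling by library size alone or by the upper quartile left 8 rather than 5 junction genes higher.

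Surface and secreted proteins of epithelia were mostly lower in OCUG-1. Of the trypsinogens, kallikreins, membrane serine proteases and their inhibitors, 0 of 15 tested members were higher and 15 lower in OCUG-1, with a median log2 fold change of -3.89. ST14, the membrane protease matriptase, had 159, 143 and 218 CPM in the HuCCT1 libraries and 2.24, 3.05 and 3.65 CPM in the OCUG-1 libraries (log2 fold change -5.86 ± 0.18 (SE), adjusted p = 4.53e-22 by edgeR). Its inhibitor SPINT1 was lower too, at 267 against 22.3 CPM (-3.58), as was prostasin, PRSS8, which works with matriptase, at 30.01 against 0.641 CPM (-5.55). PRSS23, a secreted protease, had 949 ± 114 CPM (SD, n = 3) in the HuCCT1 and 58.4 ± 11.6 CPM in the OCUG-1 libraries (-4.02). PRSS3 (52.99 against 1.595 CPM) may share reads with the near-identical trypsinogens PRSS1 and PRSS2, and its value is uncertain. Of the mucins, the glycoproteins of mucus and cell surface, 2 of 12 tested members were higher and 6 lower in OCUG-1, with a median log2 fold change of -1.38 (-0.60 with floor genes at their bound). MUC5AC, a gel-forming gastric mucin, had 87.4, 79.3 and 91.4 CPM in the HuCCT1 libraries and 0.471, 0.517 and 0.342 CPM in the OCUG-1 libraries (log2 fold change -7.58 ± 0.40 (SE), adjusted p = 2.43e-13 by edgeR). MUC16, which carries the CA-125 antigen, had 94.6, 91.9 and 104 CPM in the HuCCT1 libraries and 1.001, 1.78 and 1.596 CPM in the OCUG-1 libraries (log2 fold change -6.04 ± 0.23 (SE), adjusted p = 3.12e-19 by edgeR). MUC4, a membrane mucin, showed the same order at 62.5 against 0.636 CPM (-6.61), and MUC1 a smaller difference at 57.9 against 33.2 CPM (-0.80).

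Transcription factors of endoderm, liver and duct lineages were split between the lines. 14 of 29 tested members were higher and 14 lower in OCUG-1, with a median log2 fold change of -0.36, and 9 instead of 14 were called higher when only the 6 vehicle libraries were fitted. GRHL2, a grainyhead factor that maintains epithelial junction genes, was at 74.1, 73.3 and 68.8 CPM in HuCCT1 and had 1, 0 and 2 counts in OCUG-1. FOXA2, a pioneer factor of endoderm, was at 58.5, 62.5 and 50.3 CPM in HuCCT1 and had 2, 0 and 1 counts in OCUG-1. Both were on in one line and at the floor in the other. EHF, an epithelial ETS factor, had 302, 262 and 325 CPM in the HuCCT1 libraries and 45.5, 50.6 and 45.3 CPM in the OCUG-1 libraries (log2 fold change -2.65 ± 0.12 (SE), adjusted p = 9.69e-18 by edgeR), and the related ELF3 went the other way with 78.9, 100.4 and 93.9 CPM in the HuCCT1 libraries and 339, 374 and 282 CPM in the OCUG-1 libraries (log2 fold change 1.87 ± 0.29 (SE), adjusted p = 1.08e-05 by edgeR). ONECUT2, a cut-homeodomain factor of liver and biliary development, had 1.63, 1.41 and 1.498 CPM in the HuCCT1 libraries and 350.3, 344 and 343 CPM in the OCUG-1 libraries. The lowest OCUG-1 library was over 100 times the highest HuCCT1 library (log2 fold change 7.82 ± 0.19 (SE), adjusted p = 4.14e-24 by edgeR). SOX17, an endoderm factor known for its role in the gallbladder and bile ducts, had 1.74, 1.298 and 1.54 CPM in the HuCCT1 libraries and 50.4, 51.7 and 52.1 CPM in the OCUG-1 libraries (log2 fold change 5.05 ± 0.24 (SE), adjusted p = 2.35e-16 by edgeR). GATA6 (54.9 against 75.4 CPM), FOXA1 (11.96 against 18.9 CPM) and KLF5 (229 against 84.9 CPM) were in use in both lines and differed by less, with log2 fold changes of 0.46, 0.65 and -1.43. HNF4A, a master factor of hepatocytes and gut, was below 10 CPM in both, at 0.5795 against 4.85 CPM (3.04), and SOX4 did not pass the test at 234 against 182 CPM.

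Mesenchymal genes, which code for matrix proteins, cytoskeleton and the factors that repress E-cadherin, were divided as well. 11 of 21 tested members were higher and 7 lower in OCUG-1, with a median log2 fold change of 0.81. FN1, the matrix glycoprotein fibronectin, had 296, 322 and 436 CPM in the HuCCT1 libraries and 4139, 5283 and 4543 CPM in the OCUG-1 libraries (log2 fold change 3.73 ± 0.18 (SE), adjusted p = 6.00e-17 by edgeR). COL6A1, a chain of collagen VI, had 208, 210.0 and 219 CPM in the HuCCT1 libraries and 3953, 3590.0 and 3653 CPM in the OCUG-1 libraries (log2 fold change 4.13 ± 0.14 (SE), adjusted p = 8.43e-21 by edgeR). All OCUG-1 libraries lay above all HuCCT1 libraries for both. VIM, the intermediate filament vimentin, differed in the same direction at 194 against 794 CPM (2.03), and so did S100A4, a calcium-binding protein of motile cells, at 3.55 against 184 CPM (5.68). In the opposite direction stood THBS1, the matrix protein thrombospondin 1, with 4246, 4099 and 6795 CPM in the HuCCT1 libraries and 41.99, 58.4 and 58.1 CPM in the OCUG-1 libraries (log2 fold change -6.58 ± 0.30 (SE), adjusted p = 2.24e-14 by edgeR). NT5E, the ecto-nucleotidase CD73, also often counted as mesenchymal, was lower in OCUG-1 at 275 against 10.2 CPM (-4.76). Of the 6 SNAI, ZEB and TWIST genes of the list, which code for repressors of E-cadherin, 4 passed the low-count filter, and all 4 were called. SNAI2 was lower in OCUG-1 at 120.1 against 9.73 CPM (-3.62), while ZEB1 at 12.9 against 23.6 CPM (0.87), SNAI1 at 1.47 against 8.01 CPM (2.49) and ZEB2 at 1.01 against 2.42 CPM (1.28) were higher. TWIST1 and TWIST2 had at most 1 count in any of the 6 libraries. The repressors and VIM were chosen after their values were seen. Fibroblast markers were higher in OCUG-1 for 5 of 7 tested members and lower for 1, with a median log2 fold change of 1.44. They summed to 48.6 to 66.6 CPM in the HuCCT1 and 165 to 184 CPM in the OCUG-1 libraries. COL1A2 had no more than 1 count and COL3A1 no more than 9 counts in any of the 6 libraries, and THY1 was at 0 against 20.5 CPM. The part of fibroblast markers in the difference was not tested.

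Genes that bind or cut the matrix differed member by member. 6 of 19 tested members were higher and 11 lower in OCUG-1, with a median log2 fold change of -0.59. The laminin-binding chain ITGB4 (395 against 38.05 CPM, -3.38) and the collagen-binding chain ITGA2 (328 against 17.1 CPM, -4.26) were lower in OCUG-1. The fibronectin-binding chain ITGA5 was higher at 27.6 against 187 CPM (2.76) and the laminin-binding ITGA7 at 0.854 against 127 CPM (7.14). Metalloproteinases and their inhibitors leaned to OCUG-1: 13 of 21 tested members were higher and 5 lower in OCUG-1, with a median log2 fold change of 1.18. MMP14, the membrane collagenase, had 72.6, 72.1 and 98.9 CPM in the HuCCT1 libraries and 395, 422 and 383 CPM in the OCUG-1 libraries (log2 fold change 2.30 ± 0.16 (SE), adjusted p = 2.75e-13 by edgeR), while MMP7, the matrilysin of glandular epithelium, had 528, 392 and 316 CPM in the HuCCT1 libraries and 11.3, 10.8 and 11.1 CPM in the OCUG-1 libraries (log2 fold change -5.22 ± 0.29 (SE), adjusted p = 1.34e-12 by edgeR).

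**Figure D3:**
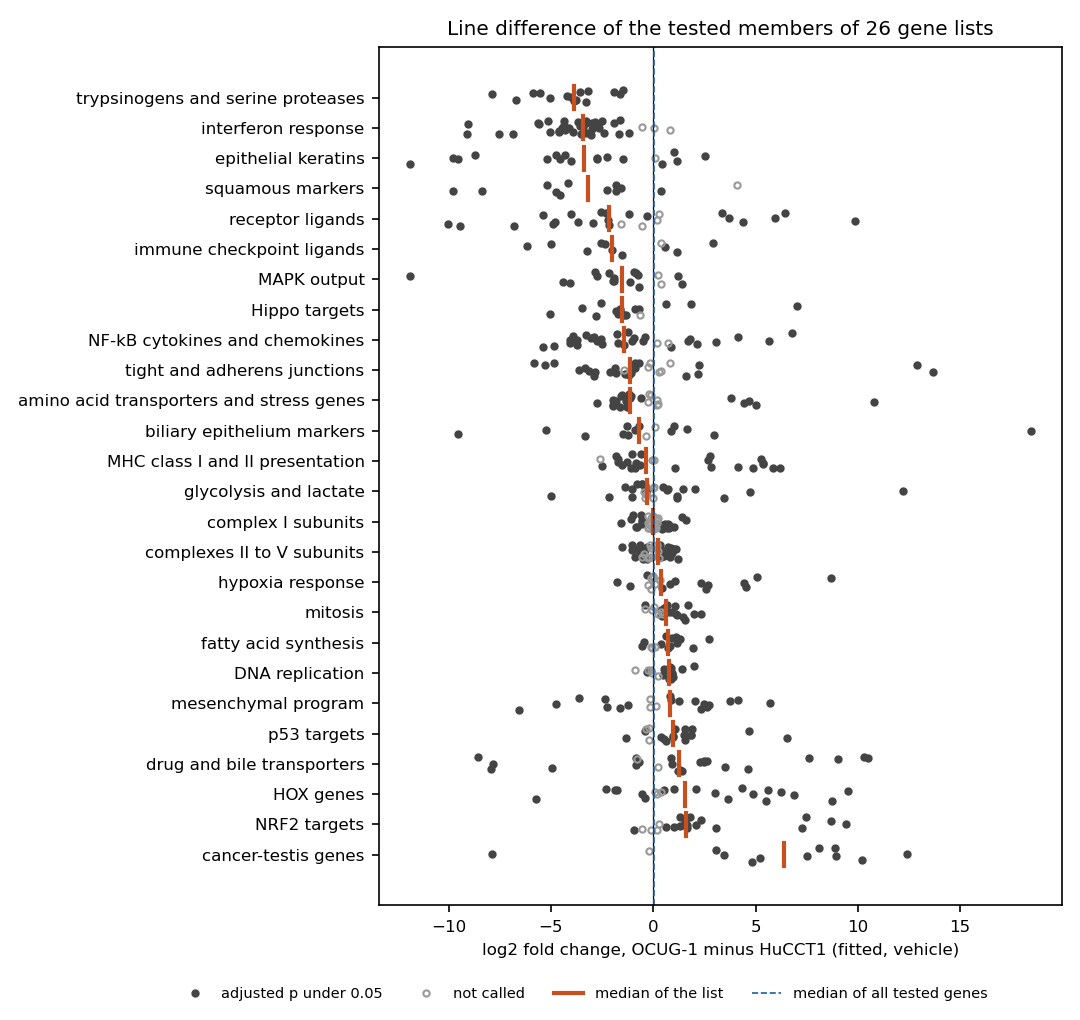
Fitted log2 fold change, OCUG-1 minus HuCCT1 (x axis), of each tested member of 26 gene lists (y axis); filled points passed an adjusted p of 0.05, orange bars are list medians and the dashed line the median of all tested genes (0.05). Medians ran from -3.89 in the serine proteases and -3.41 in the interferon response to 1.60 in the NRF2 targets and 6.38 in the cancer-testis genes.

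Interferon-stimulated genes, the antiviral effectors that type I interferon switches on, were low in OCUG-1 almost as a block. 0 of 40 tested members were higher and 37 lower in OCUG-1, with a median log2 fold change of -3.41. The 37 members called lower all differed by at least 2-fold, against a background of 20.0% of genes called lower by that much. MX1, a dynamin-like antiviral GTPase, had 753, 635 and 672 CPM in the HuCCT1 libraries and 20.9, 19.3 and 22.3 CPM in the OCUG-1 libraries (log2 fold change -5.04 ± 0.25 (SE), adjusted p = 2.07e-14 by edgeR). IFITM1, a membrane protein that blocks virus entry, had 375, 297 and 219 CPM in the HuCCT1 libraries and 0.236, 0.862 and 0.5699 CPM in the OCUG-1 libraries (log2 fold change -9.04 ± 0.31 (SE), adjusted p = 4.82e-18 by edgeR). ISG15, a ubiquitin-like modifier, had 612, 594 and 390.1 CPM in the HuCCT1 libraries and 60.5, 51.1 and 51.2 CPM in the OCUG-1 libraries (log2 fold change -3.29 ± 0.22 (SE), adjusted p = 2.16e-12 by edgeR). None of these genes overlapped between the lines. IFI27, a small mitochondrial protein strongly induced by interferon, had 1494 ± 319 CPM (SD, n = 3) in the HuCCT1 and 264 ± 4.25 CPM in the OCUG-1 libraries (-2.50). BST2, which tethers budding virus, had 252, 249 and 302 CPM in the HuCCT1 libraries and 1.18, 1.897 and 1.197 CPM in the OCUG-1 libraries (log2 fold change -7.55 ± 0.24 (SE), adjusted p = 4.31e-20 by edgeR). Of the signalling factors, STAT2 was lower at 244 against 76.03 CPM (-1.69) and IRF9 at 10.7 against 4.71 CPM (-1.18), while the adaptor STING1, at 10.6 against 10.8 CPM, did not pass the test. STAT2, IRF9 and STING1 were chosen after their values were seen. The summed level of the list was 8082 to 10269 CPM in the HuCCT1 and 813 to 864 CPM in the OCUG-1 libraries.

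Because these genes moved together, their promoters were searched for the interferon-stimulated response element, the binding site of the complex that contains IRF9, written as GAAA, any 2 bases and GAAA again, and read on both strands. Promoter sequences were available for 31 of the 40 tested members, and 18 of them (58.1%) held at least 1 match in the 250 bases before the RefSeq transcription start, compared with 299 of 11758 promoters of tested protein-coding genes (2.54%). Of the 18, 16 were called lower in OCUG-1 and none higher. The list was drawn up from genes known to respond to interferon, so the matches describe the list and not the difference between the lines. Stretches of 120 bases around the matches are shown for 4 members whose levels are given here (RefSeq, GRCh38.p14, 5′ to 3′ on the strand of the gene, matches in capitals, overlapping matches run together):
ISG15, chr1:1013331-1013450, forward strand: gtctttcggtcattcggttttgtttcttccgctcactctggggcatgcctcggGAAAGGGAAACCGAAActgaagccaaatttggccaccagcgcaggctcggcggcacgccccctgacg
IFI27, chr14:94110579-94110698, forward strand: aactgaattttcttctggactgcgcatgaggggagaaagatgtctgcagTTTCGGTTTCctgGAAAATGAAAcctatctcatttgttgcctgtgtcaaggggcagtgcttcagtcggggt
IFI44L, chr1:78620274-78620393, forward strand: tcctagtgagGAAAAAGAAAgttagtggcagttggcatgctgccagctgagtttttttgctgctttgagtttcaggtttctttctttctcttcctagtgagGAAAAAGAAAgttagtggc
BST2, chr19:17405694-17405813, reverse strand: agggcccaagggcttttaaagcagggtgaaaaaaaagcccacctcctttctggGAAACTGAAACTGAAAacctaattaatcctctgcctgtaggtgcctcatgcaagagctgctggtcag
In ISG15 the 2 matches began 113 and 107 bases before the start, in BST2 130 and 124 bases before it. IFI44L, whose product is a cytoplasmic antiviral protein, had 438, 327 and 306 CPM in the HuCCT1 libraries and 6.301, 6.72 and 8.44 CPM in the OCUG-1 libraries (log2 fold change -5.64 ± 0.26 (SE), adjusted p = 6.80e-15 by edgeR).

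Antigen presentation was split by class. 11 of 26 tested members were higher and 12 lower in OCUG-1, with a median log2 fold change of -0.35. The 10 class II genes tested, the DR, DQ, DP and DM chains with the invariant chain CD74 and the class II transactivator CIITA, were all higher in OCUG-1, with log2 fold changes of 2.67 to 6.21. HLA-DRA, the constant chain of HLA-DR, had 11.9, 13.2 and 15.5 CPM in the HuCCT1 libraries and 688, 857 and 785 CPM in the OCUG-1 libraries (log2 fold change 5.84 ± 0.17 (SE), adjusted p = 2.44e-22 by edgeR). CD74, which chaperones class II molecules, had 433, 495 and 415 CPM in the HuCCT1 libraries and 2864, 2926 and 2758 CPM in the OCUG-1 libraries (log2 fold change 2.67 ± 0.11 (SE), adjusted p = 1.77e-18 by edgeR). HLA-DQA1 was at 3.71 against 267 CPM (6.21). Of 16 genes of the class I route, 12 were lower and 1 was higher in OCUG-1. B2M, the light chain that all class I molecules share, had 985, 763 and 957 CPM in the HuCCT1 libraries and 199, 426 and 298 CPM in the OCUG-1 libraries (log2 fold change -1.55 ± 0.30 (SE), adjusted p = 1.68e-04 by edgeR). HLA-B (574 against 165 CPM) was lower and HLA-C (127 against 269 CPM) was higher. HLA genes are highly polymorphic and nearly identical in parts, so that the allele of each line can change how many of its reads map, and single HLA values are uncertain. The division into classes, and HLA-B and HLA-C, were chosen after the values were seen. Immune cell markers summed to 4.58 to 5.901 CPM in the HuCCT1 and 8.95 to 10.7 CPM in the OCUG-1 libraries, and their part in the class II levels was not tested.

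Inflammatory mediators and immune ligands were mostly lower, with a block of chemokines higher. 8 of 31 tested members were higher and 21 lower in OCUG-1, with a median log2 fold change of -1.45 (-1.22 with the floor gene at its bound). CXCL8, the neutrophil chemokine interleukin 8, had 73.6, 113 and 113 CPM in the HuCCT1 libraries and 689, 751 and 1062 CPM in the OCUG-1 libraries (log2 fold change 3.06 ± 0.19 (SE), adjusted p = 7.15e-14 by edgeR). CXCL6, which binds the same receptors, had 5.41, 6.43 and 8.62 CPM in the HuCCT1 libraries and 197, 466 and 364 CPM in the OCUG-1 libraries (log2 fold change 5.65 ± 0.36 (SE), adjusted p = 5.89e-11 by edgeR), and CXCL1 was higher at 34.5 against 605 CPM (4.14). CCL2, the monocyte chemokine, was at 1.14 against 122 CPM (6.76). In contrast, IL1A, the alarm cytokine interleukin 1 alpha, had 68.6, 76.9 and 85.6 CPM in the HuCCT1 libraries and 2.53, 2.36 and 3.19 CPM in the OCUG-1 libraries (log2 fold change -4.83 ± 0.24 (SE), adjusted p = 3.36e-15 by edgeR), and BIRC3, an inhibitor of apoptosis induced by NF-kB, was lower at 575 against 43.4 CPM (-3.73). Among ligands of immune checkpoints, 3 of 11 tested members were higher and 7 lower in OCUG-1, with a median log2 fold change of -2.01. CD274, the gene of PD-L1, which restrains T cells, had 93.97, 100.2 and 130.5 CPM in the HuCCT1 libraries and 0.824, 1.67 and 1.99 CPM in the OCUG-1 libraries (log2 fold change -6.17 ± 0.27 (SE), adjusted p = 4.06e-16 by edgeR). LGALS9 (104 against 17.6 CPM), PVR (331 against 65.4 CPM) and the phagocytosis inhibitor CD47 (307 against 105 CPM) were lower too, and the costimulatory ligand TNFSF9 was higher at 7.53 against 57.1 CPM (2.93).

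Targets of NRF2, the factor that KEAP1 holds back and that drives glutathione, NADPH and aldo-keto reductase genes, were higher in OCUG-1. 15 of 20 tested members were higher and 1 lower in OCUG-1, with a median log2 fold change of 1.60. AKR1C2, a steroid and xenobiotic reductase, had 4.96, 5.48 and 3.45 CPM in the HuCCT1 libraries and 3409.9, 2982 and 2978 CPM in the OCUG-1 libraries (log2 fold change 9.40 ± 0.21 (SE), adjusted p = 6.53e-25 by edgeR). AKR1C1 had 3.22, 1.92 and 3.54 CPM in the HuCCT1 libraries and 943, 1445 and 1252 CPM in the OCUG-1 libraries (log2 fold change 8.69 ± 0.29 (SE), adjusted p = 3.61e-18 by edgeR). The AKR1C genes are close paralogs whose reads may have been split between them, so the ratio among them is uncertain, whereas no HuCCT1 library exceeded 10 CPM for any of AKR1C1, AKR1C2, AKR1C3 and AKR1B10. TKT, a transketolase of the pentose phosphate pathway, had 401, 438 and 459.9 CPM in the HuCCT1 libraries and 1958, 1842 and 1649 CPM in the OCUG-1 libraries (log2 fold change 2.07 ± 0.13 (SE), adjusted p = 1.84e-14 by edgeR), and its groups did not overlap. The 4 enzymes PGD, TKT, TALDO1 and ME1, which belong to the pentose phosphate pathway or make NADPH, were higher, with log2 fold changes of 1.32 to 2.07; that subset was chosen after its values were seen. The regulator NFE2L2, which encodes NRF2, did not pass the test at 112 against 137 CPM, and KEAP1 was lower at 59.7 against 30.7 CPM (log2 fold change -0.96 ± 0.12 (SE), adjusted p = 4.37e-08 by edgeR). Not all members were higher: the cystine carrier SLC7A11 was at 77.1 against 71.3 CPM and did not pass. NFE2L2, KEAP1 and SLC7A11 were chosen after their values were seen.

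The core of the antioxidant response element, to which NRF2 binds with small MAF proteins, was searched as TGACNNNGC on both strands. Of 16 NRF2 targets with a promoter sequence, 5 (31.2%) held a match in the 250 bases before the start, compared with 11.9% of 11758 promoters. Of the 5, 4 were called higher and none lower in OCUG-1, beside 15 of 20 higher and 1 lower in the whole list. This list was drawn up from known NRF2 targets, so the matches describe the list and not the difference between the lines. Stretches of 120 bases from 3 members with a match are printed as before, from RefSeq with the match in capitals:
ME1, chr6:83431125-83431244, reverse strand: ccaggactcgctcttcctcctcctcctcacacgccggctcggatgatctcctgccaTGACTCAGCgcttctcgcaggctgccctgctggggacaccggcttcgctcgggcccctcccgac
TXNRD1, chr12:104215624-104215743, forward strand: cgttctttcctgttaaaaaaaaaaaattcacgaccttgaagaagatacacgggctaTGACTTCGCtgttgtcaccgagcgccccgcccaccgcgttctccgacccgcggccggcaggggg
GCLM, chr1:93909431-93909550, reverse strand: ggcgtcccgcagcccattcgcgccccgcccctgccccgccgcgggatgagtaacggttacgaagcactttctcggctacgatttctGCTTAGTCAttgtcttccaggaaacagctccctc
ME1, the cytosolic malic enzyme, had 21.01, 23.5 and 33.5 CPM in the HuCCT1 libraries and 55.1, 76.3 and 63.3 CPM in the OCUG-1 libraries (log2 fold change 1.32 ± 0.16 (SE), adjusted p = 2.44e-08 by edgeR). TXNRD1, thioredoxin reductase, had 362, 327 and 467 CPM in the HuCCT1 libraries and 809, 1101 and 933 CPM in the OCUG-1 libraries (log2 fold change 1.298 ± 0.16 (SE), adjusted p = 4.27e-08 by edgeR). GCLM, the modifier subunit of glutamate-cysteine ligase, had 34.98, 27.7 and 39.5 CPM in the HuCCT1 libraries and 73.02, 131 and 116 CPM in the OCUG-1 libraries (log2 fold change 1.64 ± 0.21 (SE), adjusted p = 2.71e-07 by edgeR). All OCUG-1 libraries were above all HuCCT1 libraries in these 3 genes, of which TXNRD1 and GCLM were chosen for their matches. The junction genes were searched in the same way. The E-box CACCTG, to which SNAI and ZEB repressors can bind, was found on either strand in 4 of 21 of their promoters (19.0%), compared with 16.4% of all promoters. The grainyhead consensus AACCGGTT was in 0 of 21, compared with 0.128% of all, which says only that these letters are not in the windows.

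Genes that metabolise and move drugs were mostly higher in OCUG-1. Of phase I and II enzymes, 24 of 36 tested members were higher and 9 lower in OCUG-1, with a median log2 fold change of 1.07. ALDH3A1, an aldehyde dehydrogenase, had 1.78, 2.596 and 1.82 CPM in the HuCCT1 libraries and 154, 126 and 148 CPM in the OCUG-1 libraries (log2 fold change 6.13 ± 0.26 (SE), adjusted p = 1.28e-16 by edgeR), whereas the retinal-oxidising ALDH1A3 had 649, 647 and 722 CPM in the HuCCT1 libraries and 34.2, 40.8 and 38.98 CPM in the OCUG-1 libraries (log2 fold change -4.15 ± 0.18 (SE), adjusted p = 2.53e-17 by edgeR). The UGT1A genes share their last exons, and the opposite values of UGT1A6 (0.1696 against 22.3 CPM) and UGT1A10 (21.1 against 0.537 CPM) rest on how reads in shared exons were assigned. Of transporters, 15 of 24 tested members were higher and 7 lower in OCUG-1, with a median log2 fold change of 1.27. ABCC2, the export pump of conjugated bilirubin and of many drugs at the apical membrane, had 3.22, 3.67 and 2.72 CPM in the HuCCT1 libraries and 635, 582 and 675 CPM in the OCUG-1 libraries (log2 fold change 7.63 ± 0.22 (SE), adjusted p = 7.86e-22 by edgeR). SLC28A3, a concentrative nucleoside carrier that takes up gemcitabine, had 0.189, 0.339 and 0.182 CPM in the HuCCT1 libraries and 326, 274 and 278 CPM in the OCUG-1 libraries (log2 fold change 10.29 ± 0.36 (SE), adjusted p = 2.10e-17 by edgeR). SLCO1B3, an uptake carrier of liver cells that is found in some carcinomas, had 113, 135 and 71.4 CPM in the HuCCT1 libraries and 0.353, 0.575 and 0.342 CPM in the OCUG-1 libraries (log2 fold change -7.95 ± 0.41 (SE), adjusted p = 4.86e-13 by edgeR). The 2 lines thus stood apart in both directions, with ABCC2 and SLC28A3 high in every OCUG-1 library and SLCO1B3 in every HuCCT1 library. ABCB1, the classical multidrug pump, had no more than 9 counts in any of the 6 libraries.

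Ligands of receptor tyrosine kinases were mostly lower in OCUG-1. 6 of 25 tested members were higher and 15 lower in OCUG-1, with a median log2 fold change of -2.17. AREG, the EGF receptor ligand amphiregulin, had 546, 586 and 716 CPM in the HuCCT1 libraries and 4.18, 5.06 and 7.18 CPM in the OCUG-1 libraries (log2 fold change -6.81 ± 0.22 (SE), adjusted p = 3.96e-20 by edgeR). PDGFB was lower at 62.4 against 1.49 CPM (-5.39), and GAS6, the ligand of AXL, at 439.9 against 26.9 CPM (-4.03). EGF itself was higher, with 0.341, 0.508 and 0.681 CPM in the HuCCT1 libraries and 47.3, 46.1 and 38.4 CPM in the OCUG-1 libraries (log2 fold change 6.44 ± 0.28 (SE), adjusted p = 1.65e-18 by edgeR). On the receptor side, 5 of 14 tested members were higher and 6 lower in OCUG-1, with a median log2 fold change of -0.15. EGFR (chr7:55019021-55211628, GRCh38) had 1198, 1164 and 1446 CPM in the HuCCT1 libraries and 186, 250.5 and 206 CPM in the OCUG-1 libraries. The lowest HuCCT1 library was more than 3 times the highest OCUG-1 library (log2 fold change -2.57 ± 0.15 (SE), adjusted p = 1.19e-15 by edgeR). EPHA2 (313 against 70.7 CPM, -2.15) and AXL (355 against 117 CPM, -1.61) were lower as well. FGFR4, the receptor for the bile acid hormone FGF19, was higher with 0.606, 0.7903 and 0.862 CPM in the HuCCT1 libraries and 46.5, 39.1 and 38.2 CPM in the OCUG-1 libraries (log2 fold change 5.78 ± 0.23 (SE), adjusted p = 1.81e-19 by edgeR), and so was the insulin receptor INSR at 7.06 against 69.1 CPM (3.29). MET, the receptor of hepatocyte growth factor, had 401, 379 and 425 CPM in the HuCCT1 libraries and 387, 433 and 392 CPM in the OCUG-1 libraries (log2 fold change 0.01 ± 0.09 (SE), adjusted p = 0.931 by edgeR), with overlapping groups.

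Of 14 listed kinases that sorafenib is known to inhibit, 7 passed the low-count filter. The VEGF receptors FLT1, KDR and FLT4, and KIT, FLT3, RET and PDGFRA, did not, with at most 3 counts in any of the 6 libraries. Of the 7 tested, 2 were higher and 3 lower in OCUG-1, with a median log2 fold change of -0.20. They summed to 359 to 428 CPM in the HuCCT1 and 880 to 950 CPM in the OCUG-1 libraries. BRAF had 25.2, 28.2 and 31.5 CPM in the HuCCT1 libraries and 23.1, 25.7 and 24.8 CPM in the OCUG-1 libraries, with overlapping groups (log2 fold change -0.20 ± 0.12 (SE), adjusted p = 0.143 by edgeR). ARAF was lower in OCUG-1 at 70.7 against 40.3 CPM (-0.81), and FGFR1 at 55.6 against 24.3 CPM (-1.20). DDR1, a collagen receptor, was higher in OCUG-1, with 188, 181 and 205 CPM in the HuCCT1 libraries and 834, 776 and 763 CPM in the OCUG-1 libraries (log2 fold change 2.05 ± 0.16 (SE), adjusted p = 6.89e-12 by edgeR). PDGFRB was at 0.167 against 7.54 CPM (5.57) and DDR2 at 1.599 against 2.34 CPM, without a call.

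Genes that are switched on downstream of RAF, MEK and ERK were lower in OCUG-1. 2 of 18 tested members were higher and 14 lower in OCUG-1, with a median log2 fold change of -1.54. FOSL1, a component of AP-1, had 501, 679.7 and 541 CPM in the HuCCT1 libraries and 92.6, 73.4 and 92.7 CPM in the OCUG-1 libraries (log2 fold change -2.73 ± 0.15 (SE), adjusted p = 1.01e-15 by edgeR). PHLDA1 was at 278 against 38.9 CPM (-2.84) and the feedback inhibitor SPRED1 at 72.9 against 16.5 CPM (-2.14), while EGR1 differed less at 908 against 472 CPM (-0.95). Targets and parts of the Hippo pathway, in which YAP1 and TEAD factors drive growth genes, were lower for 12 of 16: 3 of 16 tested members were higher and 12 lower in OCUG-1, with a median log2 fold change of -1.51. ANKRD1 had 867, 902 and 762 CPM in the HuCCT1 libraries and 24.7, 20.9 and 30.4 CPM in the OCUG-1 libraries (log2 fold change -5.06 ± 0.18 (SE), adjusted p = 1.46e-20 by edgeR), YAP1 itself 248, 212 and 280.0 CPM in the HuCCT1 libraries and 36.5, 49.1 and 41.8 CPM in the OCUG-1 libraries (log2 fold change -2.54 ± 0.15 (SE), adjusted p = 1.71e-15 by edgeR). TEAD2, a partner of YAP1, was higher in OCUG-1 at 0.353 against 48.1 CPM (7.03). In the Wnt list, 5 of 27 tested members were higher and 15 lower in OCUG-1, with a median log2 fold change of -0.65. DKK1, a secreted Wnt inhibitor, had 556, 691 and 547 CPM in the HuCCT1 libraries and 0.883, 1.26 and 1.08 CPM in the OCUG-1 libraries (log2 fold change -9.11 ± 0.23 (SE), adjusted p = 7.97e-24 by edgeR), and its relative DKK3 the opposite at 0.285 against 39.9 CPM (7.03). In the TGF-beta and BMP list, 6 of 23 tested members were higher and 13 lower in OCUG-1, with a median log2 fold change of -0.48. TGFBR2, the type II receptor for TGF-beta, had 285, 244 and 372 CPM in the HuCCT1 libraries and 9.25, 17.01 and 12.7 CPM in the OCUG-1 libraries (log2 fold change -4.53 ± 0.34 (SE), adjusted p = 5.34e-10 by edgeR), and TGFB2 was lower at 184 against 1.35 CPM (-7.08). ID1, a target of BMP signalling, had 57.1, 67.5 and 59.96 CPM in the HuCCT1 libraries and 531, 409 and 533 CPM in the OCUG-1 libraries (log2 fold change 3.00 ± 0.25 (SE), adjusted p = 7.65e-10 by edgeR), opposite to them.

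Oxidative phosphorylation, the process that the study's second drug blocks, differed little between the untreated lines. Of 37 complex I subunits, 11 were higher and 9 lower in OCUG-1 with a median log2 fold change close to 0, and of the subunits of complexes II to V, 20 of 43 tested members were higher and 11 lower in OCUG-1, with a median log2 fold change of 0.23. Both medians are near that of all genes, and the sign of the complex I median changed with the setting (0.15 when scaled by library size). NDUFB10, an accessory subunit of complex I, had 46.2, 62.5 and 48.3 CPM in the HuCCT1 libraries and 149, 137 and 129 CPM in the OCUG-1 libraries (log2 fold change 1.40 ± 0.12 (SE), adjusted p = 2.38e-11 by edgeR). NDUFS4, a subunit needed for complex I assembly, had 72.95, 71.2 and 67.7 CPM in the HuCCT1 libraries and 21.2, 25.6 and 25.1 CPM in the OCUG-1 libraries (log2 fold change -1.56 ± 0.12 (SE), adjusted p = 1.57e-12 by edgeR). SDHD, an anchor subunit of complex II, was lower at 147 against 50.5 CPM (-1.54) and COX6B1 of complex IV higher at 83.7 against 195 CPM (1.22). The summed level of complex I was 2009.5 to 2302 CPM in the HuCCT1 and 2168 to 2239.9 CPM in the OCUG-1 libraries. Of the 13 mRNAs made from mitochondrial DNA, 3 were called lower in OCUG-1 and none higher, with a median log2 fold change of -0.07. MT-ND1, a membrane subunit of complex I, had 8896, 10314 and 4675 CPM in the HuCCT1 libraries and 4915, 3214 and 3696 CPM in the OCUG-1 libraries (log2 fold change -1.01 ± 0.27 (SE), adjusted p = 0.00272 by edgeR). HuCCT1 library 3, whose mitochondrial share was 7.08%, lay within the OCUG-1 range, and the groups overlapped. Without HuCCT1 replicate 2, 3 of the 13 were called higher and 1 lower, and the median was 0.17, so no direction is given for this list. Regulators of mitochondrial biogenesis were lower for 7 of 14 and higher for 3, with a median log2 fold change of -0.37. At 2-fold or more, 5 were lower and 2 higher, and 1 of the latter was at least 4-fold higher. Among those lower, the helicase TWNK was at 52.8 against 16.7 CPM (-1.66), the mitochondrial transcription factor TFB2M at 27.8 against 8.94 CPM (-1.64) and the nuclear receptor ESRRA at 98.2 against 30.8 CPM (-1.67).

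Central carbon metabolism was also divided, as were all tested genes (35.6% higher and 32.7% lower in OCUG-1). 9 of 24 tested members were higher and 12 lower in OCUG-1, with a median log2 fold change of -0.18, though without HuCCT1 replicate 3 the number lower was 7. DLAT, the acetyltransferase of pyruvate dehydrogenase, had 64.5, 45.7 and 73.8 CPM in the HuCCT1 libraries and 8.48, 13.4 and 12.3 CPM in the OCUG-1 libraries (log2 fold change -2.43 ± 0.20 (SE), adjusted p = 9.06e-11 by edgeR), and IDH2, the mitochondrial isocitrate dehydrogenase, had 15.5, 17.9 and 20.7 CPM in the HuCCT1 libraries and 89.6, 96.6 and 90.3 CPM in the OCUG-1 libraries (log2 fold change 2.35 ± 0.12 (SE), adjusted p = 7.14e-17 by edgeR). In glycolysis and lactate handling, 10 of 28 tested members were higher and 11 lower in OCUG-1, with a median log2 fold change of -0.32, with 7 lower when scaled by library size or upper quartile. SLC2A1, the glucose carrier GLUT1, had 163, 154 and 224 CPM in the HuCCT1 libraries and 32.7, 46.3 and 39.7 CPM in the OCUG-1 libraries (log2 fold change -2.19 ± 0.19 (SE), adjusted p = 1.16e-10 by edgeR). LDHB, the lactate dehydrogenase chain of oxidative tissues, was at 29.9, 28.6 and 26.7 CPM in OCUG-1 and at 0 counts in HuCCT1, at least 203-fold higher. ENO1 did not differ beyond its spread, at 1299 against 1266 CPM. Genes of the hypoxia response were higher for 10 of 20 and lower for 3. CA12, a membrane carbonic anhydrase, had 1.32, 1.75 and 1.91 CPM in the HuCCT1 libraries and 675, 693 and 661 CPM in the OCUG-1 libraries (log2 fold change 8.68 ± 0.23 (SE), adjusted p = 7.21e-23 by edgeR), and BNIP3, a mitophagy receptor, 3.41, 3.61 and 2.22 CPM in the HuCCT1 libraries and 56.2, 84.8 and 73.7 CPM in the OCUG-1 libraries (log2 fold change 4.54 ± 0.18 (SE), adjusted p = 2.83e-19 by edgeR). Of the 20, 7 did not pass the test, DDIT4 among them at 229 against 213 CPM.

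Lipid synthesis leaned to OCUG-1. 10 of 15 tested members were higher and 2 lower in OCUG-1, with a median log2 fold change of 0.72. SREBF1, a transcription factor that drives lipogenic genes, had 107, 118 and 121 CPM in the HuCCT1 libraries and 496, 418 and 429.8 CPM in the OCUG-1 libraries (log2 fold change 1.96 ± 0.14 (SE), adjusted p = 2.35e-13 by edgeR). SCD, the stearoyl-CoA desaturase, had 783, 983 and 1288 CPM in the HuCCT1 libraries and 1661, 2025 and 1650.0 CPM in the OCUG-1 libraries (log2 fold change 0.81 ± 0.20 (SE), adjusted p = 8.22e-04 by edgeR). FASN, the fatty acid synthase, was at 381 against 715 CPM (0.91). Cholesterol synthesis showed no such lean: 9 of 24 tested members were higher and 7 lower in OCUG-1, with a median log2 fold change of 0.06. INSIG1 was higher at 118 against 344 CPM (1.55). Amino acid carriers and genes of the ATF4 stress response were lower for the most part: 5 of 26 tested members were higher and 15 lower in OCUG-1, with a median log2 fold change of -1.12. ATF4 had 722, 949 and 753 CPM in the HuCCT1 libraries and 415, 368 and 365 CPM in the OCUG-1 libraries (log2 fold change -1.08 ± 0.13 (SE), adjusted p = 1.80e-08 by edgeR), the glutathione-degrading CHAC1 58.00 against 8.74 CPM (-2.73) and the amino acid carrier chain SLC3A2 516 against 173 CPM (-1.57). GDF15, a stress-induced secreted factor, went the other way with 9.16, 11.9 and 11.5 CPM in the HuCCT1 libraries and 307, 220.4 and 308 CPM in the OCUG-1 libraries (log2 fold change 4.68 ± 0.39 (SE), adjusted p = 4.87e-09 by edgeR). FTL, the ferritin light chain that stores iron, had 384, 396 and 327 CPM in the HuCCT1 libraries and 3725, 3999 and 3712 CPM in the OCUG-1 libraries (log2 fold change 3.37 ± 0.13 (SE), adjusted p = 1.50e-19 by edgeR), and GPX4, the peroxidase that protects membranes from ferroptosis, 258, 293 and 261 CPM in the HuCCT1 libraries and 137, 133 and 126 CPM in the OCUG-1 libraries (log2 fold change -1.03 ± 0.09 (SE), adjusted p = 4.46e-11 by edgeR).

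Regulators of entry into the cell cycle took different forms in the lines. CCND1 (chr11:69641087-69654474, GRCh38), cyclin D1, had 735, 645 and 858 CPM in the HuCCT1 libraries and 45.6, 45.00 and 42.9 CPM in the OCUG-1 libraries, and all HuCCT1 libraries lay above all OCUG-1 libraries (log2 fold change -4.07 ± 0.13 (SE), adjusted p = 1.63e-21 by edgeR). CDK6, one of its kinase partners, had 251, 202 and 291 CPM in the HuCCT1 libraries and 9.54, 10.00 and 10.4 CPM in the OCUG-1 libraries (log2 fold change -4.64 ± 0.19 (SE), adjusted p = 2.42e-18 by edgeR). CCND2, cyclin D2, had 1, 0 and 2 counts in the HuCCT1 libraries and 20.5, 25.8 and 23.9 CPM in OCUG-1. In the 9p21 region the inhibitor CDKN2B had 244 against 13.2 CPM (-4.21) and MTAP, a methionine salvage enzyme, 153 against 36.5 CPM (-2.06). Their neighbour CDKN2A, which encodes p16 and ARF, went the other way at 125 against 247 CPM (0.99). Of 16 tested protein-coding genes in the surrounding segment chr9:20000001-30000000 (GRCh38), 11 were lower and 2 higher in OCUG-1, with a median of -1.14. Over all tested genes, 32.7% were lower and 35.6% higher. Reads of CDKN2B and of the antisense gene CDKN2B-AS1 that overlaps it cannot be told apart unless strand was used in counting, which is not given in the sources used here. Genes of mitosis and DNA replication were higher in OCUG-1: 15 of 22 tested members were higher and 1 lower in OCUG-1, with a median log2 fold change of 0.61, and for replication 18 of 24 tested members were higher and 1 lower in OCUG-1, with a median log2 fold change of 0.77. NDC80, a kinetochore protein, had 26.6, 30.7 and 32.1 CPM in the HuCCT1 libraries and 162, 147 and 139 CPM in the OCUG-1 libraries (log2 fold change 2.33 ± 0.17 (SE), adjusted p = 1.13e-12 by edgeR). TOP2A, the topoisomerase of dividing cells, had 159, 163 and 229 CPM in the HuCCT1 libraries and 512, 588 and 535 CPM in the OCUG-1 libraries (log2 fold change 1.57 ± 0.16 (SE), adjusted p = 1.03e-09 by edgeR). PCNA, the sliding clamp of replication, had 144, 135 and 114 CPM in the HuCCT1 libraries and 306, 379 and 351 CPM in the OCUG-1 libraries (log2 fold change 1.40 ± 0.14 (SE), adjusted p = 7.00e-10 by edgeR). These groups did not overlap. Of the members called higher, 8 of 15 mitosis genes and 2 of 18 replication genes differed by 2-fold or more.

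Targets of p53 were higher for 14 of 19 and lower for 2 (median log2 fold change 0.96). BTG2, an antiproliferative factor, had 0.644, 0.734 and 0.681 CPM in the HuCCT1 libraries and 53.9, 77.4 and 58.6 CPM in the OCUG-1 libraries (log2 fold change 6.53 ± 0.32 (SE), adjusted p = 3.26e-15 by edgeR), and BBC3, the apoptosis inducer PUMA, 8.03, 9.77 and 7.67 CPM in the HuCCT1 libraries and 36.4, 32.7 and 25.7 CPM in the OCUG-1 libraries (log2 fold change 1.90 ± 0.30 (SE), adjusted p = 8.00e-06 by edgeR). The main targets MDM2 (50.2 against 43.1 CPM) and CDKN1A (94.3 against 74.6 CPM) did not pass the test; both were chosen after their values were seen. In the BCL2 family, 4 of 16 tested members were higher and 10 lower in OCUG-1, with a median log2 fold change of -0.66. BCL2L1, which encodes the survival protein BCL-XL, had 321, 342 and 361 CPM in the HuCCT1 libraries and 28.6, 28.7 and 29.2 CPM in the OCUG-1 libraries (log2 fold change -3.56 ± 0.11 (SE), adjusted p = 1.55e-21 by edgeR), MCL1 was at 850.0 against 472 CPM (-0.85), and the proapoptotic BMF was higher at 15.4 against 88.1 CPM (2.52).

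Genes normally restricted to the germ line were on in OCUG-1. Of 29 cancer-testis genes only 12 passed the low-count filter, of which 10 were higher and 1 lower in OCUG-1, so that their count and median (6.38, or 5.45 with floor genes at their bound) describe those in use in one of the lines. PRAME was at 118, 106 and 114 CPM in OCUG-1 and had 0, 1 and 0 counts in HuCCT1. MAGEA3 (0.189 against 56.3 CPM) and MAGEA6 (0.123 against 60.6 CPM) are near-identical copies whose reads cannot be apportioned. DDX43 was the member higher in HuCCT1, at 29.1, 30.6 and 25.8 CPM with 2, 2 and 2 counts in OCUG-1. HOX genes, which record position along the body axis, passed the filter for 22 of 39, of which 13 were higher and 6 lower (median 1.56, or 1.31 at the bound). HOXB7 had 1.32, 1.64 and 0.999 CPM in the HuCCT1 libraries and 61.2, 68.3 and 63.8 CPM in the OCUG-1 libraries (log2 fold change 5.62 ± 0.19 (SE), adjusted p = 6.45e-21 by edgeR), HOXA10 0, 0 and 2 counts in the HuCCT1 libraries and 15.4, 15.98 and 15.3 CPM in OCUG-1, and HOXB5, with 72.6 against 81.2 CPM, did not pass. In the coagulation and complement list, 19 of 34 tested members were higher and 12 lower in OCUG-1, with a median log2 fold change of 0.64. The 3 chains of fibrinogen, FGA (0.259 against 58.4 CPM), FGB (0.354 against 110.4 CPM) and FGG (0.469 against 359 CPM), were on in OCUG-1, and tissue factor, F3 (1863 against 165 CPM), thrombomodulin, THBD (114 against 0.403 CPM), and the protease inhibitor SERPINB2 (253 against 0.172 CPM) were high in HuCCT1. FGB is also a member of the hepatocyte marker list, of which 5 of 12 genes passed the low-count filter. Of those 5, FGB, CYP3A4 and AHSG were higher in OCUG-1, the last with at most 7 counts in any library, SERPINA1 was lower at 188 against 3.63 CPM, and ALB, with at most 7 counts, was not called (median log2 fold change 3.501, or 0.72 with genes at the floor at their bound). The list summed to 176 to 203 CPM in the HuCCT1 and 102 to 129.6 CPM in the OCUG-1 libraries, nearly all of it SERPINA1 in HuCCT1 and FGB in OCUG-1. APOA1, APOA2, APOB and TTR had no more than 2 counts in any of the 6 libraries. The part of hepatocyte markers in the fibrinogen levels was not tested.

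Levels of different genes were compared per length, as CPM per kb of gene model. TMSB10, an actin-binding peptide, had rank 1 in both lines, at 2710 ± 597 CPM per kb (SD, n = 3) in HuCCT1 and 4362 ± 306 in OCUG-1. In HuCCT1, KRT81 had rank 3 at 1932 ± 221 CPM per kb and KRT7 rank 5 at 1512 ± 186, levels that placed these keratins beside the actins ACTB and ACTG1. In OCUG-1 the same 2 keratins ranked 11951 and 9475. There FTL had rank 2 at 4342 ± 185 CPM per kb, SPP1 rank 6 at 925 ± 311, CD74 rank 7 at 895 ± 26.7 and COL6A1 at rank 15 with 698 ± 36.3. In HuCCT1, FTL ranked 43, CD74 196 and COL6A1 985. SPP1 and TMSB10 had the widest spread among these values, and neighbours in the order such as SPP1, CD74 and S100A11 (875 ± 94.2) in OCUG-1 did not differ beyond their SD.

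Neighbouring genes shared a direction in some chromosome segments. Protein-coding genes were grouped into 10 Mb windows with at least 10 tested genes (GRCh38), with no test. By whole chromosome, the median log2 fold change was lowest on chromosome 11, at -0.88 with 535 of 833 genes lower and 157 higher in OCUG-1. It was highest on chromosome 18, at 0.81 with 132 of 198 higher, and on chromosome 16, at 0.68 with 401 of 677 higher. The window with the lowest median lay at chr11:130000001-140000000, where 11 of 13 genes were lower (median -1.72), ST14 and the amyloid precursor-like gene APLP2 among them (854 against 144 CPM, -2.57). In chr11:100000001-110000000, 24 of 35 genes were lower (median -1.56), including MMP7 and the apoptosis inhibitors BIRC3 and BIRC2 (137 against 17.6 CPM, -2.96). The highest window was in chr19:20000001-30000000, where 26 of 28 genes were higher and 1 lower, with a median of 4.02, and the next highest median was 1.24.

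**Figure D4:**
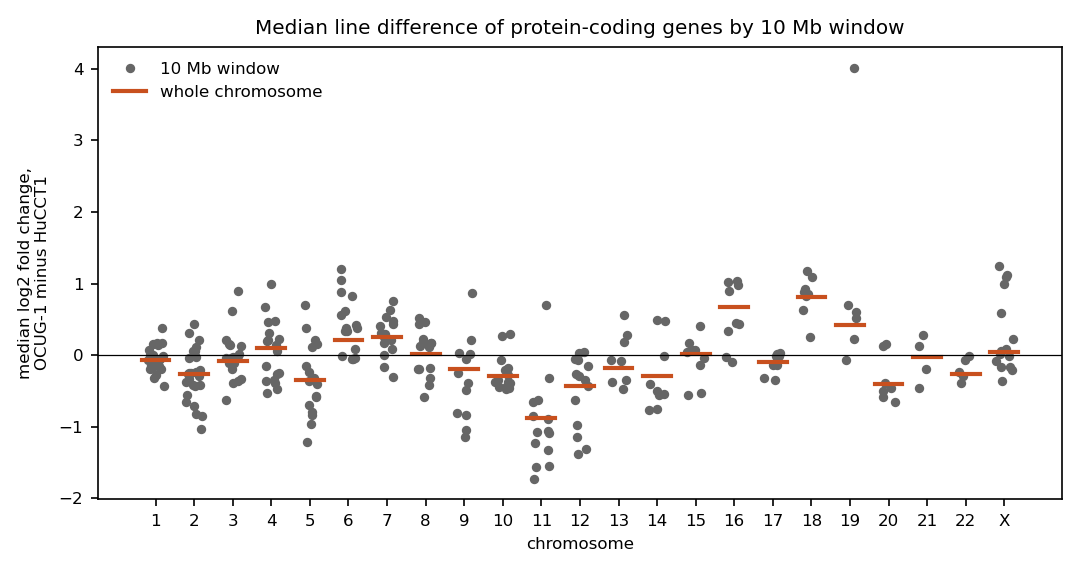
Median log2 fold change, OCUG-1 minus HuCCT1 (y axis), of tested protein-coding genes in 10 Mb windows (grey points) and over whole chromosomes (orange bars), by chromosome (x axis). One window of chromosome 19 stands at 4.02, and most windows of chromosome 11 lie below 0.

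That window holds a cluster of zinc finger genes, many of which code for DNA-binding repressors with a Krüppel-associated box. All 22 tested genes named ZNF in it were higher in OCUG-1, with a median log2 fold change of 4.91, compared with 111 of 200 ZNF genes higher and 35 lower elsewhere on chromosome 19 (median 0.58) and 88 of 232 higher and 69 lower on other chromosomes (median 0.10). The window was picked for its highest median, which these genes make up in large part. Their shared direction therefore follows largely from that choice, and the contrast with other ZNF genes is a description without a test. ZNF43 (chr19:21804949-21852125, GRCh38) was at 39.04, 27.5 and 37.4 CPM in OCUG-1 and at 0 counts in all HuCCT1 libraries, at least 248-fold higher. ZNF90 was at 15.02, 12.01 and 13.9 CPM in OCUG-1 and at 0 counts in HuCCT1. ZNF85 had 0.189, 0.0564 and 0.0908 CPM in the HuCCT1 libraries and 26.9, 21.6 and 24.5 CPM in the OCUG-1 libraries, and ZNF429 0.227, 0 and 0 CPM in the HuCCT1 libraries and 16.3, 19.5 and 19.9 CPM in the OCUG-1 libraries. Every OCUG-1 library exceeded every HuCCT1 library in these 4 genes. Zinc finger genes of a cluster are similar in sequence, and the split of reads among them is uncertain. Windows of 5 Mb, which group the same genes anew, gave 22 of 22 genes higher and a median of 4.91 at chr19:20000001-25000000.

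The line difference was read again in the 18 drug-treated libraries, whose group means share no library with the vehicle comparison. All arms came from the same fit, with the same low-count filter and estimate of spread, so their calls are not independent of the vehicle calls. Of the 5832 genes called at 4-fold or more in vehicle, 90.8% had the same sign and a call at 1.25 µM sorafenib, 81.6% at 10 µM and 79.9% in the combination, and 4228 had them in all 3 arms. A call of opposite sign was made for 5, 134 and 155 of the 5832. For comparison, 64.7%, 69.0% and 67.2% of all 22944 genes were called between the lines in those arms, in either direction. KRT7 kept log2 fold changes of -9.55 in vehicle, -8.64 at 1.25 µM, -8.57 at 10 µM and -8.56 in the combination. CDH1 had -5.82 in vehicle, -5.47 at 1.25 µM, -7.10 at 10 µM and -8.75 in the combination, and AKR1C2 had 9.40 in vehicle, 8.29 at 1.25 µM, 5.08 at 10 µM and 5.71 in the combination. MX1 had -5.04 in vehicle, -5.16 at 1.25 µM, -2.40 at 10 µM and -1.58 in the combination. The members of the interferon list were 0 higher and 37 lower in vehicle, 1 higher and 38 lower at 1.25 µM, 2 higher and 38 lower at 10 µM and 4 higher and 33 lower in the combination, and those of the NRF2 list 15 higher and 1 lower in vehicle, 14 higher and 1 lower at 1.25 µM, 12 higher and 3 lower at 10 µM and 12 higher and 3 lower in the combination.

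**Figure D5:**
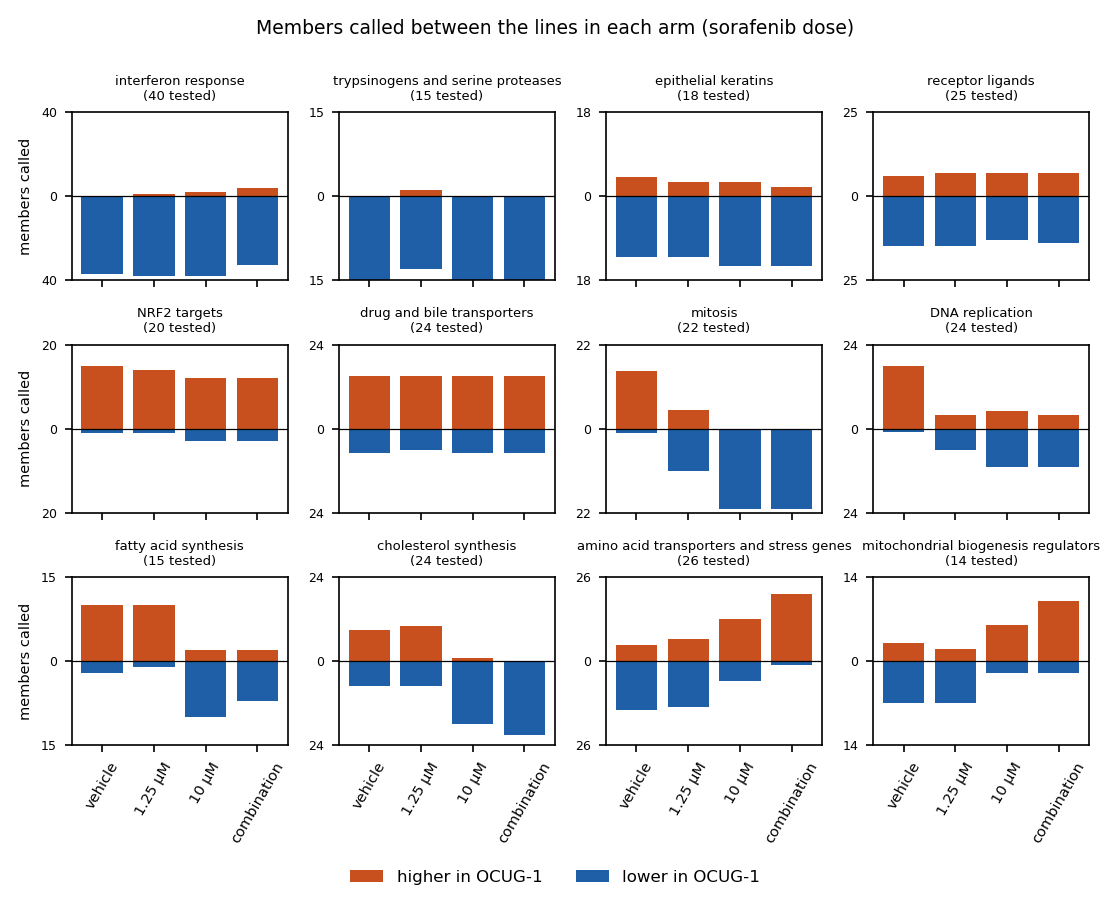
Number of members called higher (orange, upward) and lower (blue, downward) in OCUG-1 than in HuCCT1 for 12 gene lists in each arm (x axis); each y axis runs to the number of tested members. The interferon list has 37 lower in vehicle and 33 to 38 lower under drug, while the mitosis list goes from 15 higher in vehicle to 21 lower at 10 µM.

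In other groups the called members lay in another direction under drug. Mitosis genes were 15 higher and 1 lower in vehicle, 5 higher and 11 lower at 1.25 µM, 0 higher and 21 lower at 10 µM and 0 higher and 21 lower in the combination. TOP2A had log2 fold changes of 1.57 in vehicle, 0.71 at 1.25 µM, -2.12 at 10 µM and -2.46 in the combination, and its mean levels in vehicle were 184 against 545 CPM. Replication genes were 18 higher and 1 lower in vehicle, 4 higher and 6 lower at 1.25 µM, 5 higher and 11 lower at 10 µM and 4 higher and 11 lower in the combination. Fatty acid synthesis genes were 10 higher and 2 lower in vehicle, 10 higher and 1 lower at 1.25 µM, 2 higher and 10 lower at 10 µM and 2 higher and 7 lower in the combination, and cholesterol synthesis genes 9 higher and 7 lower in vehicle, 10 higher and 7 lower at 1.25 µM, 1 higher and 18 lower at 10 µM and 0 higher and 21 lower in the combination. The amino acid and stress list turned in the other direction: 5 higher and 15 lower in vehicle, 7 higher and 14 lower at 1.25 µM, 13 higher and 6 lower at 10 µM and 21 higher and 1 lower in the combination. ATF4 had -1.08 in vehicle, -1.29 at 1.25 µM, -0.48 at 10 µM and -0.19 in the combination. Regulators of mitochondrial biogenesis were 3 higher and 7 lower in vehicle and 2 higher and 7 lower at 1.25 µM. At 10 µM they were 6 higher and 2 lower, and in the combination 10 higher and 2 lower. Whether the line difference of a gene differed between arms was not tested. By contrast, keratins were 4 higher and 13 lower in vehicle, 3 higher and 13 lower at 1.25 µM, 3 higher and 15 lower at 10 µM and 2 higher and 15 lower in the combination, and serine proteases and their inhibitors 0 higher and 15 lower in vehicle, 1 higher and 13 lower at 1.25 µM, 0 higher and 15 lower at 10 µM and 0 higher and 15 lower in the combination.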

How the data were processed

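Total RNA from 24 cultures of HuCCT1 and OCUG-1 was sequenced as poly(A)-selected paired-end libraries, per the labels' protocols, and 6 vehicle libraries form the comparison described. The authors deposited raw read counts per Ensembl gene. The submitters' processing notes name bcl2fastq, fastp 1.3.2, HISAT2 2.2.2, featureCounts of Subread 2.1.1, MultiQC 1.33, R 4.4.1, DESeq2 1.42.1 and the build GRCh38. Neither the annotation release nor the strand setting is given in the sources used here, and the handling of multi-mapping reads is not given either. Overlapping, antisense and near-identical genes are therefore uncertain.

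The tables held 78724 gene IDs, and 42179 of them carried a symbol in the name table. GENCODE release 29 (GRCh38) covered 57302 and supplied positions, lengths and gene types. Genes passed edgeR's filterByExpr with a minimum count of 10 (22944 genes). Counts of all 24 libraries in 8 groups were scaled by TMM and fitted with edgeR 4.0.16 under R 4.3.3 (quasi-likelihood F-test, 16 residual degrees of freedom), and the contrast OCUG-1 minus HuCCT1 in vehicle was tested with Benjamini-Hochberg adjustment over all genes. Standard errors are the log2 fold change divided by the square root of F. CPM values are TMM-scaled. Bounds use a floor of 3 counts per library, converted to CPM in the line without counts. The members and gene lists were chosen with earlier results of these data known. Named genes included the 15 largest differences in each direction with at least 10 CPM in the higher line. These 15 were taken only from genes whose libraries did not overlap between the lines. For them, the absence of overlap was set by the choice and is no separate result. Also named were up to 5 called and 3 abundant members of each list and the 15 highest genes at the floor in the other line. The largest differences in named chromosome windows and members of 4 short lists were named as well. Single values of a few listed genes are not reported here. Motifs were searched in RefSeq promoters of GRCh38.p14, in the 250 bases before the start.

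In simulated counts with 200 changed genes and 22190 to 22212 genes per run, the test of this comparison recovered 25.1% of 1.5-fold, 60.3% of 2-fold, 74.5% of 4-fold and 87.1% of 8-fold changes, and 4.92% of its calls were false. In the data 68.3% of genes were called, so the adjustment let larger p-values pass there than in the simulation. These rates therefore hold for the simulated setting and are not those of the comparison itself. Total counts of 16295146 to 27614211 set the precision. DESeq2 1.42.0, other scalings and filters, a fit of the 6 libraries alone, a replicate block and leaving out each library were tried as alternatives. The HuCCT1 and OCUG-1 libraries are separate cultures of 1 line each, so p-values measure the spread between cultures.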

Additional observations from a re-analysis of the deposited data

Results flagged for a closer look

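In 13 of the genes named, the difference between the lines was at least 2-fold in vehicle and at least 2-fold in the other direction in another arm, with a call and no overlap between the libraries of the lines in both. Whether the line difference differed between arms was not tested, and the cause was not tested. Of the 13, 5 act in mitosis and were higher in OCUG-1 in vehicle. TOP2A, whose vehicle value was 1.57, had log2 fold changes of -2.12 at 10 µM sorafenib and -2.46 in the combination. The kinetochore genes CENPF (1.43 in vehicle) and NDC80 (2.33) had -1.80 and -1.14 at 10 µM and -1.81 and -1.36 in the combination. The checkpoint kinases BUB1B (2.01 in vehicle) and TTK (1.68) had -1.56 and -1.72 at 10 µM and -1.68 and -1.56 in the combination.

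ACACB, the mitochondrial acetyl-CoA carboxylase, had 1.15 in vehicle, -1.67 at 10 µM and -1.88 in the combination. The other genes that were higher in OCUG-1 in vehicle met these criteria in the combination alone: the collagen receptor DDR1 from 2.05 to -1.11, the epithelial factor ELF3 from 1.87 to -2.23, the BMP target ID1 from 3.00 to -1.25 and the p53 target TP53INP1 from 1.85 to -1.42. Lower in OCUG-1 in vehicle and higher under drug were 3 genes. SLC3A2, the heavy chain of amino acid carriers, had -1.57 in vehicle, 1.34 at 10 µM and 1.76 in the combination. TWNK, the mitochondrial DNA helicase, had -1.66, 1.74 and 1.52. TFB2M, a mitochondrial transcription factor, had -1.64 in vehicle and 1.08 at 10 µM.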

How the results depend on the processing

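Of 421 named genes, 393 kept their direction and their side of the threshold under all 16 alternatives tried for them, and none reversed. Many of these genes were named for a call or a large difference in the main fit, so their stability follows in part from that choice. Calls stood at 13922 with the 6 vehicle libraries alone, 16542 with DESeq2, 16849 without a low-count filter and 11930 at a minimum count of 50, next to 15682. At a minimum count of 50, which tests fewer genes, 6702 genes were called at 2-fold or more (3689 higher and 3013 lower in OCUG-1) and 3259 at 4-fold or more. Tested against a 2-fold change with edgeR's glmTreat, 7713 genes passed. Genes on in OCUG-1 and at the floor in HuCCT1 numbered 179 from 5 CPM and 41 when 0 counts were required, and those on in HuCCT1 numbered 18 when 0 counts were required. Leaving out each library in turn gave 15007 to 15442 calls (7758 to 8040 higher and 7208 to 7402 lower), 10238 to 10792 at 2-fold (5742 to 6095 higher and 4496 to 4697 lower), 6008 to 6296 at 4-fold, and 114 to 136 and 66 to 76 genes at the floor. The replicate numbers are not given as shared days or batches. The deviations of same-numbered libraries correlated at 0.02, -0.096 and 0.0181, and those of the other pairs at -0.127 to 0.115. With 3 libraries a line and 2 different lines, these values cannot decide whether same-numbered cultures shared a day or batch. With the replicate number as a block, 13578 genes were called over the 6 libraries and 15688 over all 24, with 8820 and 10446 at 2-fold or more. The medians of the receptor, Notch, cell cycle entry, cholesterol, complex I and mitochondrial mRNA lists changed sign under at least 1 setting. Depth limits the genes at the floor, whose folds are bounds or not given.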

Other observations

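Retinoid genes, which move and oxidise vitamin A or answer to it, were split. 5 of 17 tested members were higher and 9 lower in OCUG-1, with a median log2 fold change of -0.30. TGM2, a transglutaminase induced by retinoic acid, had 3696, 3415 and 4865 CPM in the HuCCT1 libraries and 5.06, 5.11 and 6.27 CPM in the OCUG-1 libraries (log2 fold change -9.51 ± 0.20 (SE), adjusted p = 4.63e-25 by edgeR). ALDH1A1, which makes retinoic acid, was higher in OCUG-1 at 3.41 against 107 CPM (4.98), opposite to ALDH1A3.

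Among S100 proteins and annexins, which bind calcium, 9 of 20 tested members were higher and 5 lower in OCUG-1, with a median log2 fold change of 0.08. ANXA3 was lower at 467 against 42.8 CPM (-3.45) and ANXA10, an annexin of gastric epithelium, higher at 2.297 against 99.9 CPM (5.41), while S100A6 stayed near the top of both lines at 1103 against 1009 CPM. In the Notch list, 7 of 15 tested members were higher and 4 lower in OCUG-1, with a median log2 fold change of 0.03. NOTCH3 had 0.227, 0.282 and 0.272 CPM in the HuCCT1 libraries and 99.6, 116 and 103 CPM in the OCUG-1 libraries (log2 fold change 8.66 ± 0.39 (SE), adjusted p = 8.27e-15 by edgeR), and HES1, a Notch target, was lower at 206 against 88.7 CPM (-1.22). Of 11 intestinal markers 4 passed the low-count filter, and 1 was lower and none higher in OCUG-1. Gastric markers included 3 higher and 5 lower of 9 tested.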
